A study of Mus musculus with 2 samples.

Results

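The 107 genes described here encode the machinery of oxidative phosphorylation (OXPHOS), and were taken from the 32293 genes of the RNA matrix by name. The 13 names starting with mt- are the protein genes of the mitochondrial genome, and 94 names (Nduf, Cox4 to Cox8, Atp5, Uqcr and Sdha to Sdhd) are nuclear genes, of which 86 encode subunits and 8 encode Ndufaf assembly factors of complex I. The mitochondrial genes held 7 subunits of complex I, 0 of complex II, 1 of complex III, 3 of complex IV and 2 of complex V. The nuclear genes held 37, 4, 8, 20 and 17 subunits of these complexes.

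RNA and open chromatin (ATAC) were profiled together in nuclei of tdTomato+ cells that had been sorted by flow cytometry from femur marrow. The mice carried Prrx1-cre and 1 R26R-tdTomato allele and were at postnatal day 21. Cre expressed from Prrx1 regulatory sequence marks limb skeletal cells and what descends from them, and no group without Cre or of another age was part of this library pair. Growth plates had been removed, the marrow had been dissociated with enzymes, males and females were pooled, and 15000 nuclei were loaded. There was 1 RNA library and 1 ATAC library, so the values below have no replicate check and no p-value, and their 95% intervals (exact Poisson for levels, exact Clopper-Pearson for shares) cover counting error only.

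Nuclei were barcodes with at least 500 non-mitochondrial RNA molecules (UMIs) and at least 1000 ATAC counts in peaks, with no limit on the mitochondrial share. Of 4481 such barcodes, 161 with the highest doublet scores were left out, and 1956 of the remaining 4320 fell into exactly 1 of 11 gates defined by marker genes. OXPHOS genes were in no marker list. The stromal gates held 714 reticular-like, 277 osteoblast-like, 39 chondrocyte-like, 151 mural-like and 49 tendon or synovial-like nuclei. The other gates held 31 endothelial-like, 152 erythroid-like, 159 granulocyte-like, 185 macrophage-like, 50 osteoclast-like and 149 B-lymphoid-like nuclei. The gated nuclei held 6128746 non-mitochondrial UMIs, and their median depth ran from 1049 non-mitochondrial UMIs in granulocyte-like to 12450 in chondrocyte-like nuclei.

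Marker genes of each gate were compared with barcodes of free RNA. These were 62603 barcodes that held from 100 up to 400 UMIs and had under 500 ATAC counts. A nucleus entered a gate only when its summed UMIs of the same markers were well above what free RNA would give. Enrichment of the markers over free RNA was therefore partly set by the gating rule. The counts of enriched markers are not an independent check of gate identity. At least 2-fold higher than in free RNA were 8 of 13 osteoblast markers, 7 of 10 osteoclast markers, 11 of 12 mural markers, 11 of 13 macrophage markers, 13 of 14 B-lymphoid markers and all markers of the other 6 lists. RNA of chondrocytes was present in the other gates: the median nucleus held 10 UMIs of chondrocyte markers in the tendon or synovial gate against 4 of its own, 9 against 9 in the mural gate and 11 against 13 in the osteoclast gate. The tdTomato transcript stood at 230 to 475 CPM (UMIs per 1000000 non-mitochondrial UMIs) in the stromal gates and at 28.3 to 70.6 CPM in the endothelial and blood gates. Its level in the latter 6 gates was thus below that of every stromal gate, in a preparation sorted for tdTomato, and whether those cells carried the allele in recombined form was not tested.

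Oxidative phosphorylation couples the oxidation of NADH and succinate to the making of ATP at the inner mitochondrial membrane. Complexes I and II pass electrons to ubiquinone, complex III passes them on to cytochrome c, complex IV reduces oxygen, and complex V (ATP synthase) uses the proton gradient that complexes I, III and IV build. All complexes but the second combine subunits encoded in mitochondrial DNA with subunits encoded in the nucleus, so that both genomes have to be expressed. Bone marrow holds cell types that are known to differ widely in their use of this route: osteoclasts are rich in mitochondria, maturing red cells lose theirs, and cartilage cells live in low oxygen and rely on glycolysis.

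Promoters of 77 of the 94 nuclear genes had an entry in RefSeq (GRCm38.p6, 250 bases before to 50 bases after the start), and 4 are printed because results below turn on them or because they carry the motifs for which this gene group is known. Cox6b1 and Cox6b2 encode alternative forms of a complex IV subunit, and Cox6b2 is the member that differed most between the erythroid-like nuclei and the stroma. The Cox6b1 promoter was at chr7:30626065-30626364 and the Cox6b2 promoter at chr7:4753045-4753344, both on the minus strand. Capitals in the Cox6b2 promoter mark a GC box (GGGCGG), and the Cox6b1 promoter held none of the 8 motifs that were searched for.
Cox6b1: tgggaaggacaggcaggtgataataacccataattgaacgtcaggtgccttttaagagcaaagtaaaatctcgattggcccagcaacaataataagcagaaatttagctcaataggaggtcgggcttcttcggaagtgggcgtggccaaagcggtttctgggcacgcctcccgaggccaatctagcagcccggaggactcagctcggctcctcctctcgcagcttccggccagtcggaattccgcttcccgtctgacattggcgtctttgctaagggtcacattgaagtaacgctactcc
Cox6b2: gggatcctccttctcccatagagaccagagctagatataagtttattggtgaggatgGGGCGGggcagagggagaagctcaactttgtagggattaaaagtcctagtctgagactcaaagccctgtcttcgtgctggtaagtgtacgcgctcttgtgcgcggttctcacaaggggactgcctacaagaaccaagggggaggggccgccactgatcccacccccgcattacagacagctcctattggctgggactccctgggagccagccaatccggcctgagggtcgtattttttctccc

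The other pair, Ndufa11 (a membrane subunit of complex I) at chr17:56717512-56717811 on the plus strand and Uqcr11 (a small subunit of complex III) at chr10:80406772-80407071 on the minus strand, were the only 2 of the 77 promoters that held at least 2 of the 5 motifs NRF1, YY1, ETS, CRE and ERR. Capitals mark the cyclic AMP response element TGACGTCA and overlapping NRF1 motifs (GCGCATGCG, read on both strands) in Ndufa11, and an ETS motif (CCGGAAGT) and an NRF1 motif read on the other strand in Uqcr11. Copies of ACGTG and AGATAA, which were searched for as well, are left in lower case.
Ndufa11: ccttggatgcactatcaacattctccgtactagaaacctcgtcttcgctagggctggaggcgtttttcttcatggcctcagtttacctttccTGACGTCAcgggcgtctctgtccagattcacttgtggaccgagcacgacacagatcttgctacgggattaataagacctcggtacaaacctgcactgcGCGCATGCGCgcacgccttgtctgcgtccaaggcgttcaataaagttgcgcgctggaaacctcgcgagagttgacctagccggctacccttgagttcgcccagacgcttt
Uqcr11: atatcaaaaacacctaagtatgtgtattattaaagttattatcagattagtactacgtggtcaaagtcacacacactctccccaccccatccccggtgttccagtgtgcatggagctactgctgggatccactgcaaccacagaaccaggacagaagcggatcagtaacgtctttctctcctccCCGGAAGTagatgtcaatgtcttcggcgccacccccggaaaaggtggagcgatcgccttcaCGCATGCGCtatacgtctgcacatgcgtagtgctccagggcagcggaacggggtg

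NRF1 is a transcription factor known for its many targets among respiratory chain genes. Its motif GCGCATGCG was present on either strand in 10 of the 77 promoters (13%), against 1.95% of 27025 promoters of the same length. The 10 genes were Atp5g2, Atp5k, Atp5l, Cox6a1, Ndufa11, Ndufa8, Ndufaf4, Ndufaf5, Uqcr11 and Uqcrc1, which span complexes I, III, IV and V. The YY1 motif AAGATGGCG was in 8 promoters (10.4% against 1.64% of all), those of Atp5j, Atp5j2, Ndufa9, Ndufaf8, Ndufc1, Ndufs4, Ndufs6 and Ndufs7. Smaller numbers held the ERR motif TCAAGGTCA (2 promoters, 2.60% against 0.466%), TGACGTCA (4 promoters against 2.03% of all) and CCGGAAGT (5 promoters, 6.49% against 4.31%). The hypoxia motif ACGTG was in 24.7% of member promoters and 21.8% of all, the GATA motif AGATAA in 7.79% and 12.7%, and GGGCGG in 35 of 77 and 38.2% of all. These letters describe the windows and do not show that a factor bound there.

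Transcripts of the mitochondrial genome made up a large part of the RNA of these nuclei. Their share of all UMIs was 19.8% over the 4320 nuclei, against 1.16% in the barcodes of free RNA, and the share was lowest in the reticular-like and highest in the osteoclast-like nuclei. It was 11.9% (interval 11.87 to 11.98) in reticular-like, 15.7% in tendon or synovial-like, 16.1% in chondrocyte-like, 17.2% in osteoblast-like and 20.9% in mural-like nuclei. Among the other gates it was 16.5% in erythroid-like, 16.8% in B-lymphoid-like, 23.4% in endothelial-like, 27.1% in granulocyte-like, 28.2% in macrophage-like and 30.7% (interval 30.5 to 30.8) in osteoclast-like nuclei. The 3 gates of the myeloid lineage were thus the highest, and the stromal gates other than mural were at 17.2% or lower.

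**Figure D1:**
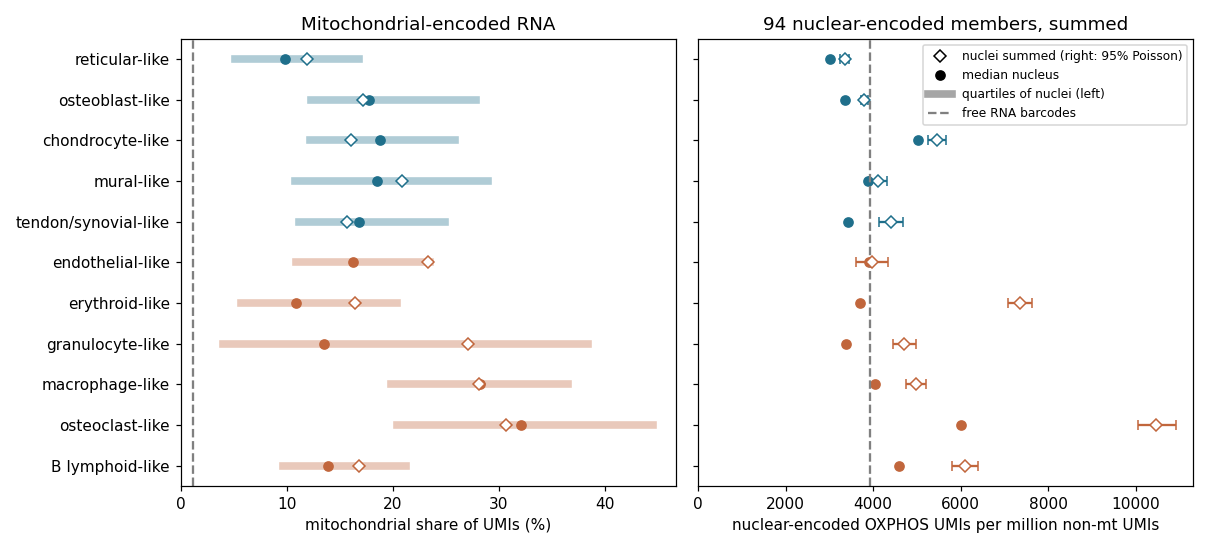
Mitochondrial share of all UMIs (percent, left) and level of the 94 nuclear OXPHOS genes together (CPM of non-mitochondrial UMIs, right) in the 11 gates, with diamonds for all nuclei of a gate summed (exact Poisson 95% intervals on the right), circles for the median nucleus, bars for the quartiles of nuclei (left) and a dashed line for free RNA. Stromal gates are blue and the others orange. Reticular-like nuclei were lowest and osteoclast-like nuclei highest on both measures, but macrophage-like and granulocyte-like nuclei, high in share, were in the middle of the range for the nuclear genes.

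Nuclei within a gate spread widely. The median nucleus held 9.85% mitochondrial UMIs in the reticular gate (quartiles 5.11 and 16.8%), 17.7% in the osteoblast gate (12.3 and 27.8%), 13.5% in the granulocyte gate (4.04 and 38.4%) and 32.1% in the osteoclast gate (20.4 and 44.6%). The granulocyte gate was the widest, and its pooled share of 27.1% rested on nuclei far above its median. A limit of 10% mitochondrial UMIs, as is often set for nuclei, would keep 360 of 714 reticular-like nuclei (50.4%) but 17.0% of the osteoblast-like, 10.8% of the macrophage-like and 5 of 50 osteoclast-like nuclei. Such a limit would thus change the mix of cell types as well as the measure itself.

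The share also moved with depth, in different directions. It went from 15.8% in reticular-like nuclei with 500 to under 1000 non-mitochondrial UMIs down to 8.06% in those with at least 4000. Over the 3 bins from 1000 UMIs it went from 38.2 to 15.3% in osteoblast-like and from 51.4 to 21.3% in osteoclast-like nuclei, where the bins held 10, 22 and 18 nuclei. It had no steady direction in erythroid-like (13.5, 18.9, 17.4 and 15.4%) and granulocyte-like nuclei (25.8, 29.9, 29.4 and 23.2%), from the shallowest to the deepest of 4 bins. The median nucleus of these gates had a higher share in the deepest than in the shallowest bin, at 14.6 against 9.23% in erythroid-like and 23.9 against 7.78% in granulocyte-like nuclei. At a matched depth of 1000 to under 2000 UMIs the order was not that of the pooled values: osteoblast-like nuclei stood at 38.2%, above macrophage-like (33.1%) and granulocyte-like nuclei (29.9%), while reticular-like nuclei (14.3%) were still the lowest and osteoclast-like nuclei (51.4%) still the highest. At 2000 to under 4000 UMIs the values were 10.2% in reticular-like, 28.3% in osteoblast-like, 24.0% in mural-like, 17.4% in erythroid-like, 14.1% in B-lymphoid-like and 39.8% in osteoclast-like nuclei. The part of depth in these shares was not tested.

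The make-up of the mitochondrial RNA differed less between gates than its amount, and the erythroid-like nuclei stood apart. The 3 core subunits of complex IV, mt-Co1, mt-Co2 and mt-Co3, made up 53.5% of mitochondrial UMIs in erythroid-like, 51.9% in B-lymphoid-like, 50.8% in granulocyte-like and 50.2% in macrophage-like nuclei. They made up 43.5 to 46.1% in the 5 stromal gates, 45.9% in endothelial-like and 45.4% in osteoclast-like nuclei, so that the osteoclast-like nuclei were with the stroma in this respect rather than with the other blood gates. Free RNA lay between, at 48.4%. The 7 subunits of complex I went the other way, with 20.6% in erythroid-like, 28.1% in tendon or synovial-like and 28.6% in osteoclast-like nuclei.

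Of single mitochondrial genes, mt-Nd3, a small core subunit of complex I, varied most, from 2.33% of mitochondrial UMIs in erythroid-like to 4.77% in osteoblast-like nuclei. The complex I genes mt-Nd2 (4.20 to 6.82%), mt-Nd4 (5.06 to 7.49%), mt-Nd4l (0.547 to 0.772%) and mt-Nd5 (1.28 to 2.04%) were also lowest in erythroid-like nuclei, as was mt-Cytb, the cytochrome b of complex III (6.21 to 10.6%, highest in osteoblast-like nuclei). mt-Nd1 ran from 6.06% in osteoblast-like to 8.41% in osteoclast-like nuclei. mt-Co1 was lowest in osteoblast-like (12.1%) and highest in erythroid-like nuclei (18.3%), while mt-Co2 (13.1 to 15.3%) and mt-Co3 (15.8 to 20.4%) varied less. The ATP synthase genes mt-Atp6 (16.4 to 19.4%) and mt-Atp8 (0.380 to 0.568%) and mt-Nd6, the complex I gene on the other strand of mitochondrial DNA (0.0678 to 0.125%), completed the 13 genes. Mitochondrial mRNAs are cut from long shared precursors, and shares of a total are not independent of each other.

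**Figure D2:**
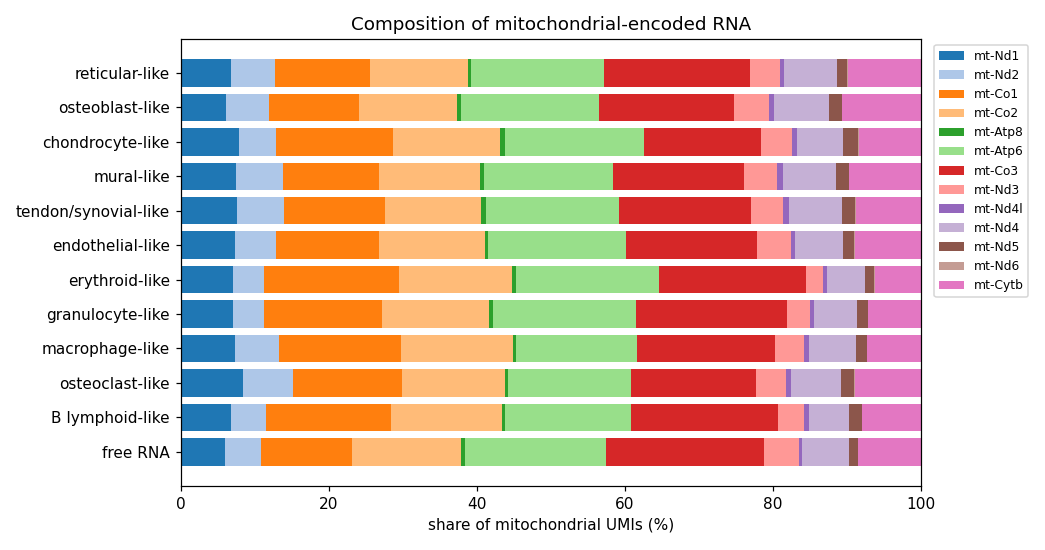
Percent of mitochondrial UMIs held by each of the 13 mitochondrial genes as stacked bars, 1 for each of the 11 gates and 1 for free RNA, with a colour for each gene. The complex IV genes held 53.5% in erythroid-like nuclei and 43.5 to 46.1% in the stromal gates.

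Nuclear-encoded members were followed as CPM of non-mitochondrial UMIs, a scale whose total leaves out mitochondrial RNA. The 94 genes summed to 3349 CPM (interval 3250 to 3450) in reticular-like, 3801 (3718 to 3886) in osteoblast-like, 4103 (3903 to 4311) in mural-like, 4407 (4136 to 4692) in tendon or synovial-like and 5459 (5260 to 5663) in chondrocyte-like nuclei. In the other gates the sums were 3966 in endothelial-like, 4705 in granulocyte-like, 4981 in macrophage-like, 6098 in B-lymphoid-like, 7357 (7089 to 7632) in erythroid-like and 10470 CPM (10040 to 10920) in osteoclast-like nuclei. In the order of these sums, each gate from osteoblast through endothelial, mural, tendon or synovial and granulocyte to macrophage had an interval that overlapped the next. The reticular gate lay apart below them, and the chondrocyte, B-lymphoid, erythroid and osteoclast gates lay apart above, each from the gate before it. The place of the erythroid gate depended on how nuclei were weighted: with each nucleus weighted alike it stood at 4817 CPM, under the B-lymphoid (5278) and chondrocyte gates (5224 CPM). In nuclei with at most 10% mitochondrial UMIs it stood at 5796 CPM, under the B-lymphoid (6630) and macrophage gates (6708 CPM). The places of the chondrocyte, B-lymphoid and granulocyte gates depended on the denominator. Gm42418, a transcript that overlaps ribosomal RNA sequence, held 17.8% (chondrocyte) to 41.2% (granulocyte) of non-mitochondrial UMIs. Without it, AY036118, Lars2, Rmrp and Malat1 in the denominator, chondrocyte (6866 CPM) was under macrophage (7613), B-lymphoid (7745) and granulocyte (8265 CPM). Free RNA was at 3917 CPM on the main scale, within the range of the lower gates.

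In the osteoclast gate every complex was higher than in the reticular gate, by 2.77-fold for complex I (2791 against 1010 CPM), 4.08-fold for complex II (418.9 against 102.7 CPM), 3.56-fold for complex III (1097 against 308.2 CPM), 3.25-fold for complex IV (2485 against 764.0 CPM) and 3.24-fold for complex V (3563 against 1102 CPM). Osteoclast-like nuclei were the highest gate for each of the 5 complexes. Reticular-like nuclei were the lowest for 4 of them, and for complex II the tendon or synovial gate was lower still, at 63.0 CPM. Of the 78 nuclear members with at least 100 UMIs over all gates, 49 were highest in the osteoclast gate and 11 in the erythroid gate, and 0 were highest in the reticular gate. Of the same members 19 were lowest in the reticular gate, 17 in the endothelial gate and 0 in the osteoclast gate. The same was not counted for all genes, so these numbers are not read as particular to the members.

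The osteoclast value depended on few nuclei. 1 of the 50 nuclei gave 15.6% of the OXPHOS UMIs of the gate, and without it the sum was 9333 CPM. The median osteoclast-like nucleus stood at 6015 CPM and the mean over nuclei, each weighted alike, at 8376 CPM, against a median of 3014 CPM in the reticular gate. In the osteoclast gate 41 of 50 nuclei were above the pooled reticular level, compared with 304 of 714 reticular-like nuclei themselves. In the tendon or synovial and endothelial gates 1 nucleus gave 15.8% and 15.1% of the OXPHOS UMIs.

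The level moved with depth in some gates. In reticular-like nuclei it was 3287, 3195, 3212 and 3803 CPM from the shallowest to the deepest of the 4 depth bins, and in osteoblast-like nuclei it was 3498, 3144 and 3862 CPM over the 3 bins from 1000 UMIs. In tendon or synovial-like nuclei, also stromal, it was 2503 (interval 1753 to 3466), 4059 and 4699 CPM (4374 to 5041) over these bins, on 11, 13 and 20 nuclei. In erythroid-like nuclei it was 3356, 3371, 5658 and 10810 CPM, in granulocyte-like 3384, 3469, 4278 and 7052 CPM, in macrophage-like 4449, 3992, 4599 and 8348 CPM, and in osteoclast-like 5226, 7601 and 12430 CPM over its 3 bins. In B-lymphoid-like nuclei the level was 3767 (interval 3199 to 4407), 5694 and 6882 CPM over the 3 bins under 4000 UMIs. The first of these intervals overlapped that of reticular-like nuclei in the same bin (3014 to 3577). In mural-like nuclei it was 5065, 4115, 3813 and 4223 CPM over the 4 bins. The deepest bin held 12 granulocyte-like and 10 macrophage-like nuclei. From 1000 to under 2000 UMIs the erythroid-like nuclei were therefore at the level of the reticular-like ones, and the difference between these gates lay in the deeper nuclei. Osteoclast-like nuclei were above reticular-like and osteoblast-like ones in each of the 3 bins.

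**Figure D3:**
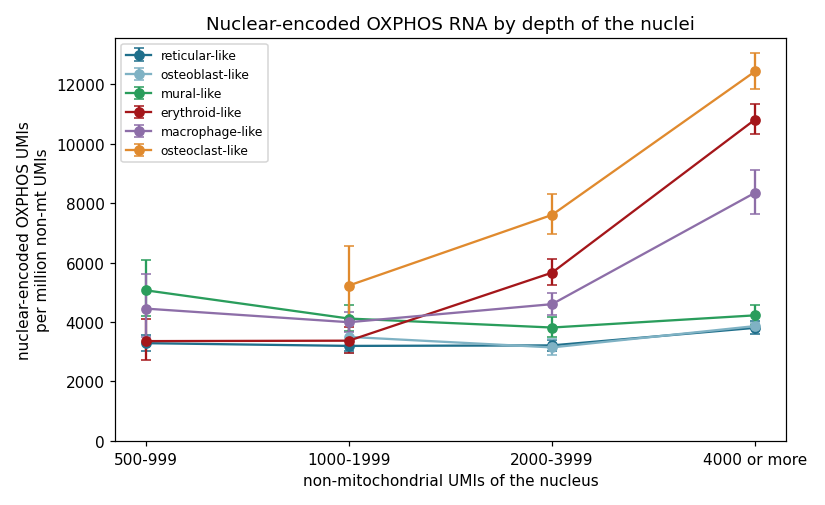
Level of the 94 nuclear OXPHOS genes together (vertical axis, CPM of non-mitochondrial UMIs) in bins of nuclear depth (horizontal axis, non-mitochondrial UMIs), for 6 of the gates, with exact Poisson 95% intervals. Erythroid-like nuclei went from 3356 to 10810 CPM with depth, whereas reticular-like nuclei stayed between 3195 and 3803 CPM.

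The nuclear level had no common direction with the mitochondrial share. When nuclei of a gate were split at 10 and 25% mitochondrial UMIs, macrophage-like nuclei went from 6708 through 5438 to 4223 CPM with rising share, B-lymphoid-like nuclei from 6630 through 6226 to 4311 CPM, and tendon or synovial-like nuclei from 5205 through 4351 to 2636 CPM. The B-lymphoid nuclei of the highest share numbered 18, and the tendon or synovial nuclei of the lowest and of the highest share 11 each. Granulocyte-like nuclei went the other way, from 3355 (interval 2961 to 3788) through 5132 to 5426 CPM (4966 to 5917). Reticular-like nuclei were at 3434, 3151 and 3596 CPM and osteoblast-like nuclei at 3532, 3993 and 3465 CPM, with no steady direction, and erythroid-like nuclei at 5796, 9228 and 5469 CPM. Between gates, there were 26.9 mitochondrial UMIs per nuclear OXPHOS UMI in erythroid-like, 33.1 in B-lymphoid-like, 40.4 in reticular-like, 42.2 in osteoclast-like, 54.5 in osteoblast-like and 78.9 in granulocyte-like nuclei. Over all nuclei the reticular and osteoclast gates, lowest and highest in OXPHOS level, thus had close to the same ratio of mitochondrial to nuclear transcripts. This closeness depended on the processing. With at most 10% mitochondrial UMIs the reticular and osteoclast shares were 5.02 and 6.86%, at levels of 3434 and 13700 CPM. After subtraction of free RNA they were 15.8 and 32.1%, at levels of 3109 and 10950 CPM. Other nuclear RNA moved with the share: Lars2, the mitochondrial leucyl-tRNA synthetase, went from 3121 to 6306 CPM in reticular-like and from 6290 to 18040 CPM in osteoblast-like nuclei from the lowest to the highest share, and Gm42418, a transcript that overlaps ribosomal RNA sequence, from 23.6 to 36.2% of non-mitochondrial UMIs in reticular-like nuclei. Lars2 and Gm42418 were both among the transcripts left out of the denominator in an alternative given below. The Lars2 values are therefore not read as a level of the synthetase mRNA. The part of these transcripts in the values by share was not tested.

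Levels were next compared gene by gene. A gene was called higher or lower when it was past 2-fold and the sides held 20 or more UMIs together, in a stromal gate against the other 4 stromal gates summed or in another gate against the 5 stromal gates summed. The comparisons share these sums and are not independent. Scaling mattered: with TMM scaling, which centres the bulk of genes, log2 ratios moved by -0.79 (B-lymphoid) to 0.51 (osteoblast), with -0.54 in the osteoclast and endothelial gates, -0.51 in the erythroid gate, -0.41 in the reticular gate and -0.28 to -0.07 in the others, so counts under both scalings are given.

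In osteoclast-like nuclei 65 of 86 nuclear members tested were higher and 2 were lower, where 26.8% of all 10681 genes were higher and 19.8% lower. For 55 of these members the intervals of both sides were also separate (15.0% of all genes). The median member was at a log2 ratio of 1.42 and the median gene at 0.34. Under TMM scaling 38 members were higher (13.3% of all genes) and 3 lower (28.1% of all genes), with a median of 0.87. The higher members were 23 of 37 of complex I, 3 of 4 of complex II, 8 of 8 of complex III, 10 of 14 of complex IV, 16 of 17 of complex V and 5 of 6 assembly factors. The 2 lower members were Cox4i2, with 0 UMIs (interval up to 17.4 CPM), and Ndufa4l2, with 1 UMI (interval up to 26.2 CPM). Osteoclasts are the multinucleate cells that resorb bone by secreting acid.

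By gene, Cox5a, a subunit of complex IV close to its catalytic core, had the largest ratio in osteoclast-like nuclei, with 66 UMIs at 310.7 CPM (interval 240 to 395) against 48.9 CPM in the stroma. It was between 42.5 and 78.5 CPM in the 5 stromal gates and at 129 CPM in macrophage-like nuclei, which lay between. Sdha, the flavoprotein of complex II that oxidises succinate, was at 235 CPM (50 UMIs, interval 175 to 310) against 44.9 CPM. Its partner Sdhb, the iron-sulfur subunit, was at 89.4 CPM (19 UMIs, interval 53.8 to 140) against 16.8 CPM. The complex I assembly factor Ndufaf5 was also among the 4 largest ratios (log2 2.44) but rested on 5 UMIs. Atp5g1, a gene for the rotating c subunit of ATP synthase, was at 127 CPM in osteoclast-like and 16.2 CPM in reticular-like nuclei, the highest and the lowest of the gates.

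**Figure D4:**
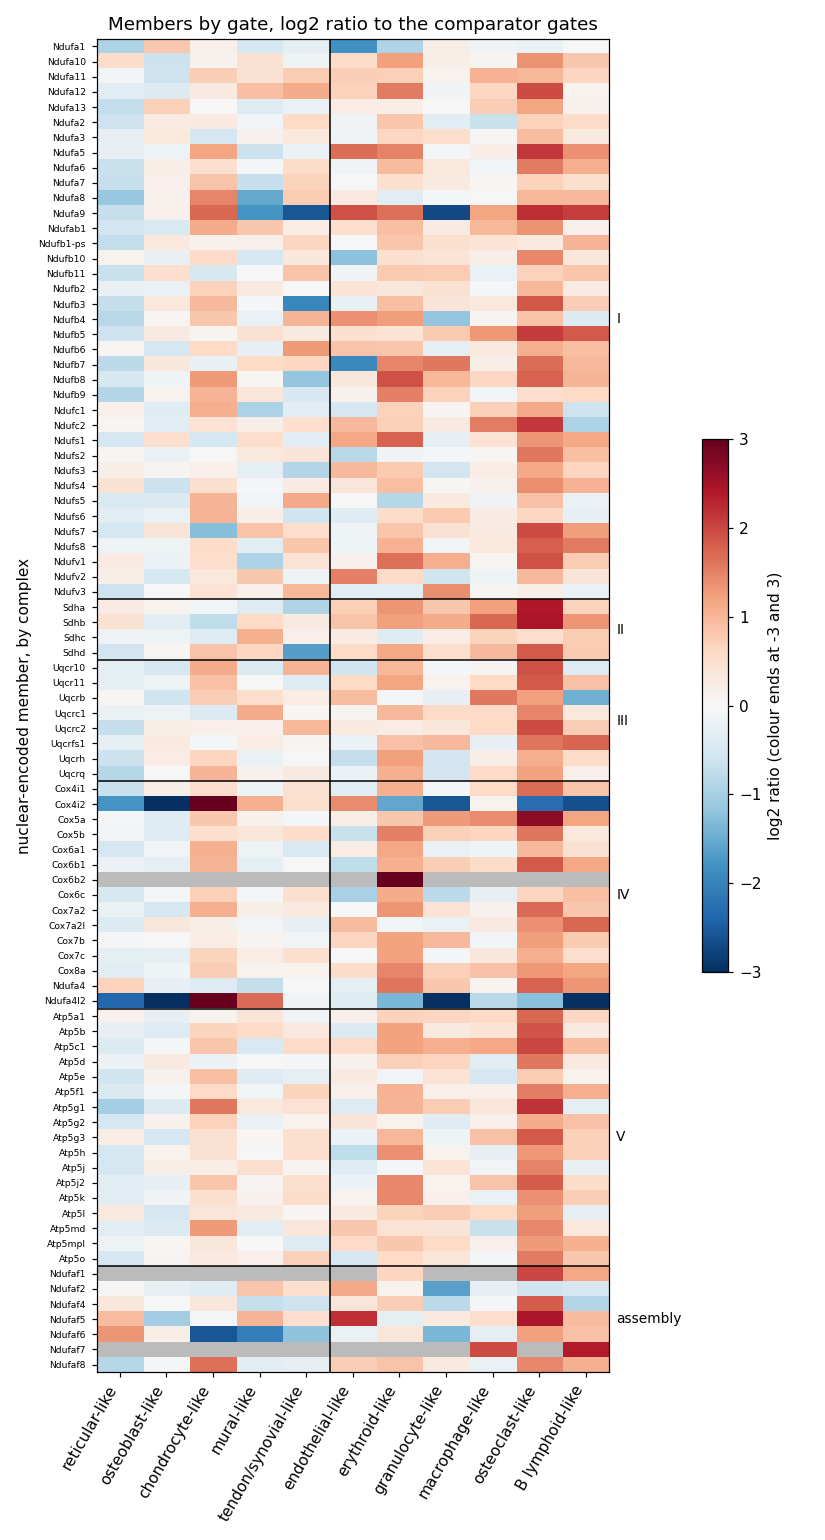
Log2 ratio of each nuclear OXPHOS gene that was tested (rows, grouped by complex, grey where the sides held under 20 UMIs) in each of the 11 gates (columns) over the comparison sum, on the scale of CPM of non-mitochondrial UMIs. The osteoclast column was higher in nearly all rows and had a median of 1.42 (0.87 under TMM scaling). The erythroid column was above 0 in 74 of 87 rows, with a median of 0.85 (0.35 under TMM scaling), and the reticular column was mostly below 0.

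In erythroid-like nuclei 36 of 87 members were higher and 2 lower (28.5% and 32.6% of all genes), and for 35 the intervals were separate as well (23.1% of all genes). Their median log2 ratio was 0.85 and that of all genes 0.05. Under TMM scaling only 7 members were higher and 4 lower, where 18.3% of all genes were higher and 39.4% lower. The median was 0.35, so most of these calls were not past 2-fold on that scale. Higher were 11 of 15 members of complex IV (2 were lower, Cox4i2 and Ndufa4l2 on 1 and 2 UMIs), 3 of 4 of complex II, 4 of 8 of complex III, 7 of 17 of complex V, 11 of 37 of complex I and 0 of 6 assembly factors. Red cell precursors need their mitochondria for the last steps of haem synthesis before they shed them.

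The largest ratio in erythroid-like nuclei was that of Cox6b2, known as the testis form of the intermembrane subunit Cox6b. It had 24 UMIs in 17 of 152 nuclei, at most 3 in any nucleus, which was 61.8 CPM (interval 39.6 to 92.0) against 2.66 CPM in the stroma. In the other 10 gates it had between 0 and 6 UMIs, at up to 11 CPM, and free RNA was at 2.25 CPM, so that a low signal elsewhere could not be told from free RNA. Its share of Cox6b1 and Cox6b2 UMIs was 36.4% (interval 24.9 to 49.1) in erythroid-like nuclei, 3% in osteoblast-like and 8.96% in reticular-like nuclei. The next members were 3 subunits of complex I: the accessory Ndufb8 was at 90.2 against 24.1 CPM (log2 1.92), the large iron-sulfur subunit Ndufs1 at 85.0 against 25.2 CPM (1.77) and the NADH-binding Ndufv1 at 36.1 against 11.7 CPM (1.66).

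In chondrocyte-like nuclei 19 of 85 members were higher and 2 lower (16.4% and 21.2% of 10422 genes), with separate intervals for 18 (12.5% of all genes). The median was 0.52, and that of all genes 0.02. Under TMM scaling 8 were higher (11.7% of all genes) and 3 lower (26.4% of all genes), with a median of 0.26. These nuclei were the deepest, and complex II had 0 of 4 members past 2-fold upwards. The 2 largest ratios by far, Cox4i2 and Ndufa4l2, were of genes known as low-oxygen forms, and are described with their partners below. Ndufa9, a complex I subunit at the ubiquinone site, was at 32.6 against 10.0 CPM (17 UMIs, log2 1.73). The assembly factor Ndufaf6 had 0 UMIs, with an interval up to 7.07 CPM.

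In B-lymphoid-like nuclei 22 of 87 members were higher and 3 lower, a smaller share than the 33.5% of all genes that were higher (22.1% were lower), and 17 had separate intervals (23.1% of all genes). The median log2 ratio was 0.73 against 0.47 for all genes. Under TMM scaling it turned to -0.06 against -0.315 for all genes, with 3 members higher (14.1% of all genes) and 13 lower (33.2% of all genes). The sign of the median in this gate therefore depended on the scaling. TMM moves all genes of a gate alike, and the median member stayed above the median gene. With at most 10% mitochondrial UMIs 38 of 79 members were higher (33.7% of all genes), and without doublet removal 12 of 88. The share of all genes without doublet removal was not counted. Cox4i2 and Ndufa4l2 had 0 UMIs, with an interval up to 13.5 CPM each. Ndufaf7 (a complex I assembly factor) had a log2 ratio of 2.38 on 5 UMIs, and Ndufa9 one of 2.06 on 14 UMIs.

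In reticular-like nuclei 1 of 85 members was higher and 4 were lower, where 20% of all genes were higher and 10.6% lower. The median was -0.34 while the median gene was at 0.32. Under TMM scaling 0 members were higher and 23 were lower (16.9% of all genes), with a median of -0.74 where all genes had -0.09. The median member was thus below the median gene. TMM moves all genes of a gate alike and so cannot check this difference. The 4 largest ratios were those of Ndufa4l2 (-2.36) and Cox4i2 (-1.76), of Ndufaf6 (8.50 against 3.41 CPM, log2 1.32), and of Ndufa8, a complex I subunit of the intermembrane space (9.27 against 21.1 CPM, -1.14). Reticular cells are the Cxcl12-rich stromal cells that surround marrow sinusoids and are related to adipocytes.

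In osteoblast-like nuclei 0 of 85 members were higher and 3 lower, where 4.73% of all genes were higher and 29.8% lower. The median member was at -0.10 and the median gene at -0.53. TMM scaling turned the median member to 0.41, with 4 higher and 2 lower (10.1% and 18.1% of all genes). The 3 lower members were Ndufa4l2 (log2 -3.21), Cox4i2 (-3.19) and Ndufaf5 (2.86 against 6.19 CPM). The largest ratio upwards in the 4 named members was that of Ndufa1, a complex I subunit encoded on the X chromosome (59.6 against 33.9 CPM, log2 0.81), which did not pass 2-fold. Osteoblast-like nuclei held more UMIs than any other stromal gate, and so weighed most in the sums that the other stromal gates were compared with.

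In the remaining gates calls were few over all nuclei and more frequent in nuclei with at most 10% mitochondrial UMIs. In mural-like nuclei 5 of 85 members were higher and 3 lower (12.5% and 9.33% of all genes), with a median of 0.07. Under TMM scaling the median turned to -0.18, where all genes had -0.10, with 1 higher and 5 lower (8.01% and 13.3% of all genes). Tendon or synovial-like nuclei had 5 higher and 5 lower of 85 (11.4% and 18.4% of all genes), and under TMM scaling 2 and 6 (9.27% and 20.3%). Endothelial-like nuclei had 8 higher and 3 lower of 85 (25.2% and 12.7% of all genes) and a median of 0.15. Under TMM scaling the median turned to -0.39, where all genes had -0.22, with 3 higher and 12 lower (11.5% and 23.4% of all genes). In each of these 3 gates the members were called no more often upwards than genes at large. With at most 10% mitochondrial UMIs, in the stroma as well, 38 of 79 members were higher in the 7 endothelial-like nuclei left, where 41.2% of all genes were higher. Under that limit 22 were higher in the 11 tendon or synovial-like nuclei left (17.7% of all genes), and 12 were higher and 11 lower in the 35 mural-like ones (17.6% and 17.7% of all genes).

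Granulocyte-like nuclei had 6 members higher and 6 lower of 85 (15.0% and 29.8% of all genes), and 6 and 6 under TMM scaling (13.8% and 31.15%). Macrophage-like nuclei had 10 higher and 0 lower of 86 (20.3% and 22.7% of all genes), with a median of 0.20. Under TMM scaling 6 were higher and 1 lower (14.9% and 27.2% of all genes), and the median turned to -0.08, where all genes had -0.20. With at most 10% mitochondrial UMIs the macrophage count went to 40 of 79 members higher on 20 nuclei (31.6% of all genes), with a median of 1.02 where all genes had 0.33, and the level from 4981 to 6708 CPM. In granulocyte-like nuclei under that limit 6 were higher and 15 lower (44.8% of all genes were lower). The largest ratios in macrophage-like nuclei were those of Ndufaf7 (1.96), Sdhb (1.73), the complex III subunit Uqcrb (1.59) and the complex I subunit Ndufc2 (1.53). In granulocyte-like nuclei Cox4i2 and Ndufa4l2 had 0 UMIs (interval up to 14.3 CPM each), as had Ndufa9. The assembly factor Ndufaf2 had 1 UMI there (3.87 CPM, interval 0.0980 to 21.6) against 17.7 CPM in the stroma.

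Single members with large ratios in the mural, tendon or synovial and endothelial gates rested on few UMIs. In mural-like nuclei, besides Ndufa4l2 (log2 1.69), Ndufaf6 had 0 UMIs (interval up to 9.62 CPM). Ndufa9 had 1 there (2.61 CPM, interval 0.0660 to 14.5, against 13.5) and Ndufa8 had 2 (5.22 CPM, 0.632 to 18.9, against 18.9). In tendon or synovial-like nuclei Ndufa9 had 0 UMIs (interval up to 16.6 CPM). There the complex I subunit Ndufb3 and Sdhd, a membrane anchor of complex II, had 1 UMI each (4.5 CPM, interval 0.114 to 25.1, against 26.3 and 20.9 CPM), and Ndufb6 of complex I was at 36.0 against 15.6 CPM (8 UMIs, log2 1.28). Counts of 0 to 2 UMIs decided most of these calls. In endothelial-like nuclei Ndufaf5 had 2 UMIs (17.4 CPM, interval 2.11 to 62.8, against 4.65), Ndufb7 and Ndufa1 had 1 each (8.70 CPM, 0.220 to 48.5, against 49.6 and 45.8 CPM), and Ndufa9 had 5 (43.5 against 12.6 CPM, log2 1.91). Ndufa9 was thus called in both directions, on 0 to 17 UMIs. Without the nucleus that gave the most OXPHOS UMIs, 16 rather than 8 members were called higher in endothelial-like nuclei. In tendon or synovial-like nuclei 1 was then higher and 9 were lower. The shares of all genes without these nuclei were not counted.

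Cox4i2 and Ndufa4l2 marked the chondrocyte-like nuclei within the OXPHOS genes. Cox4i2 encodes the alternative form of the regulatory complex IV subunit Cox4, known to be induced in low oxygen, and Ndufa4l2 encodes a relative of the complex IV subunit Ndufa4 and is a known target of hypoxia-inducible factor. On mm10 the genes are at chr2:152754173-152765037 (Cox4i2, plus strand, with no overlapping gene model) and chr10:127514967-127517154 (Ndufa4l2, plus strand, overlapped by Shmt2 on the other strand). Their partners Cox4i1 and Ndufa4 are at chr8:120668222-120674207 on the plus strand, overlapped by Gm20388 and Emc8, and at chr6:11900292-11907497 on the minus strand. UMIs of a gene and its overlapping neighbour on the same strand, as for Cox4i1, could have been assigned to either.

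Cox4i2 was highest in chondrocyte-like nuclei (59.4 CPM, 31 UMIs, interval 40.3 to 84.3). The level was 20.9 CPM (8 UMIs, interval 9.01 to 41.1) in mural-like, 13.5 CPM (3 UMIs) in tendon or synovial-like, 26.1 CPM (3 UMIs) in endothelial-like, 11 CPM (4 UMIs) in macrophage-like, 3.86 CPM (5 UMIs) in reticular-like, 1.91 CPM (4 UMIs) in osteoblast-like and 2.58 CPM (1 UMI) in erythroid-like nuclei, and 0 UMIs were found in granulocyte-like, osteoclast-like and B-lymphoid-like nuclei. Free RNA stood at 6.88 CPM, so the reticular, osteoblast and erythroid values are no more than background. The intervals of the tendon or synovial (2.79 to 39.5), endothelial (5.38 to 76.3) and macrophage gates (2.99 to 28.1) include that level. Their values cannot be told from free RNA either. Against the other stroma the log2 ratio in chondrocyte-like nuclei was 3.56. Cox4i1, the common form, was found in every gate, from 127.5 CPM in reticular-like to 579 CPM in osteoclast-like nuclei, with 247 CPM in chondrocyte-like nuclei.

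Ndufa4l2 was also highest in chondrocyte-like nuclei, followed by the mural-like ones. It was at 84.3 CPM (44 UMIs, interval 61.2 to 113) in chondrocyte-like and 44.3 CPM (17 UMIs, interval 25.8 to 71.0) in mural-like nuclei, at 2.86 to 13.5 CPM in the other stromal gates and at 8.70 CPM (1 UMI) in endothelial-like nuclei, and had 0 UMIs in granulocyte-like and B-lymphoid-like nuclei. Free RNA stood at 8.14 CPM. Of Ndufa4 and Ndufa4l2 UMIs, 69.8% (interval 57.0 to 80.8) were Ndufa4l2 in chondrocyte-like and 60.7% (40.6 to 78.5) in mural-like nuclei, against 5.62% in reticular-like and 6.25% in osteoblast-like nuclei. Of Cox4i1 and Cox4i2 UMIs, 19.4% (13.6 to 26.4) were Cox4i2 in chondrocyte-like, 11.3% in mural-like, 2.94% in reticular-like and 0.978% in osteoblast-like nuclei. These shares count molecules and were not divided by transcript length, so they are read between gates only.

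The chondrocyte-like signal was spread over nuclei. Cox4i2 was found in 16 of 39 nuclei, with at most 4 UMIs in any of them, and Ndufa4l2 in 13 of 39, with at most 10. In B-lymphoid-like nuclei, which should lack both, each was found in 0 of 149, but at a median depth of 1246 against 12450 non-mitochondrial UMIs. In mural-like nuclei Ndufa4l2 was in 9 of 151 nuclei, with at most 6 UMIs, and Cox4i2 in 8 of 151. The mural list contains Cspg4, which chondrocytes also express, and chondrocyte RNA was present in this gate: when Cspg4 was dropped, 123 nuclei were left, Acan (aggrecan, the main proteoglycan of cartilage) went from 509 to 223 CPM and Ndufa4l2 and Cox4i2 stood at 56.6 and 26.6 CPM, on the same numbers of UMIs (17 and 8). Col2a1, the collagen of cartilage, was still in 117 of the 123 nuclei, at 1751 CPM, after 2637 CPM in the 151. The part of chondrocyte RNA in the mural values was not tested.

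**Figure D5:**
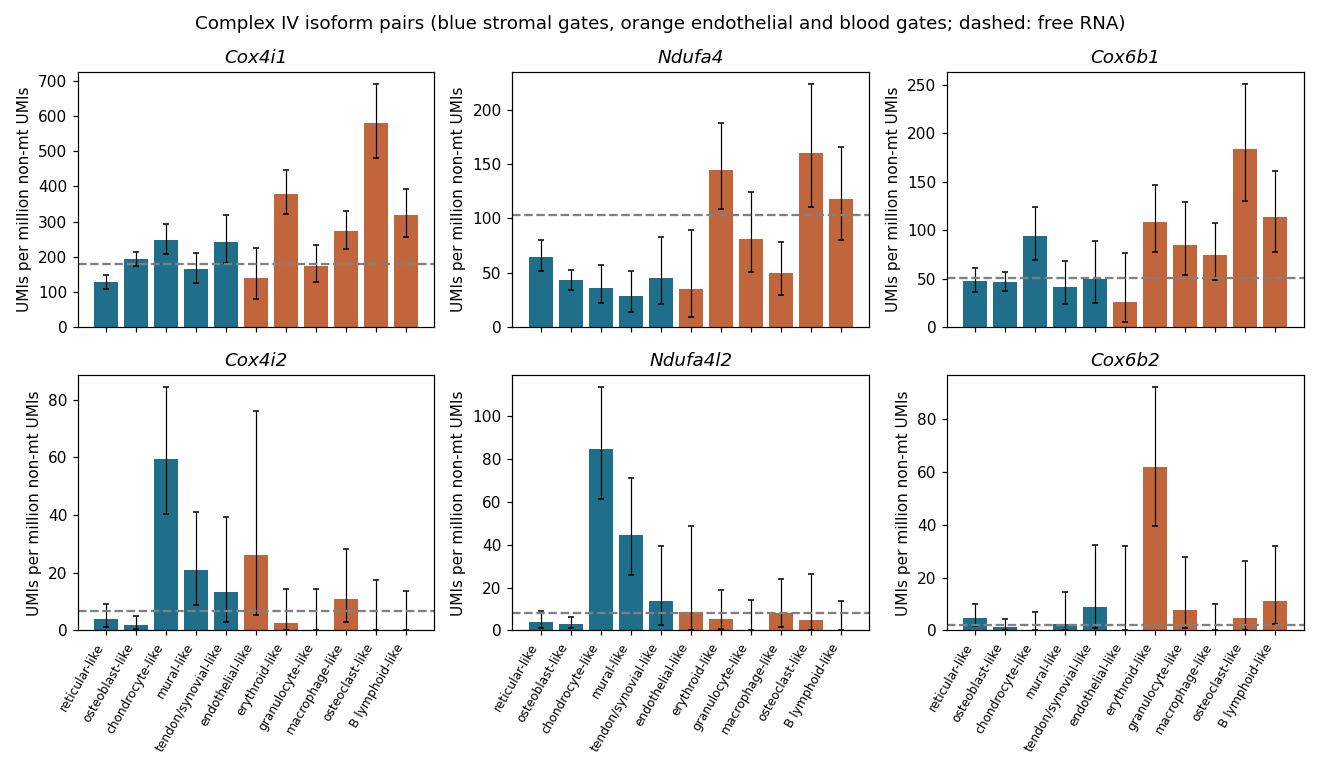
CPM of non-mitochondrial UMIs of Cox4i1 and Cox4i2, Ndufa4 and Ndufa4l2, and Cox6b1 and Cox6b2 in the 11 gates (bars) and in free RNA (dashed line), with exact Poisson 95% intervals. Cox4i2 (59.4 CPM) and Ndufa4l2 (84.3 CPM) were highest in chondrocyte-like nuclei and Cox6b2 (61.8 CPM) in erythroid-like nuclei.

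Other tissue forms were not detected in the gates. Cox6a2, Cox7a1 and Cox8b, the forms of complex IV subunits known from heart and skeletal muscle, and Cox7b2 and Cox8c had 0 UMIs in all 11 gates. A count of 3 UMIs over the gated nuclei would be 0.490 CPM. In free RNA Cox6a2 had 13 UMIs, Cox7a1 had 3 and Cox8b had 1. The other forms, Cox6a1, Cox7a2, Cox7a2l and Cox8a, were found in all gates. The 3 genes for the c subunit of ATP synthase were mixed in every gate, with Atp5g1 at 8.71% of Atp5g1, Atp5g2 and Atp5g3 UMIs in reticular-like, 12.2% in osteoblast-like, 20.8% in chondrocyte-like and 17.2% in erythroid-like nuclei. The most UMIs on average over gates in their complex were held by Ndufa2, Sdha, Uqcrh, Cox4i1 and Atp5a1, and by Ndufaf2 among the assembly factors.

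Open chromatin was measured in the same nuclei, and 0 peaks lay on the mitochondrial genome. Of the 94 nuclear members, 89 (94.7%) had a peak within 1 kb of the start, compared with 65.1% of 32280 genes. Counts in these member promoters (per 1000000 counts in peaks, likewise written CPM) were lowest in chondrocyte-like (2746) and highest in erythroid-like nuclei (6082), with 3055 in reticular-like, 3127 in osteoblast-like, 3254 in osteoclast-like, 3635 in macrophage-like and 4342 in B-lymphoid-like nuclei. The share of counts that lay in promoters of any gene moved alongside, from 47.1% in chondrocyte-like to 72.4% in erythroid-like nuclei. Within promoter counts the members held 0.583% in chondrocyte-like, 0.633% in osteoclast-like and 0.840% in erythroid-like nuclei. The osteoclast gate, first in RNA, was thus close to the stroma in promoter accessibility.

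At single promoters the picture was mixed. The Cox6b2 promoter printed above was at 50.3 CPM of peak counts (interval 43.0 to 58.3) in erythroid-like nuclei. It was at 23.8 in granulocyte-like, 21.4 in B-lymphoid-like, 20.7 in reticular-like, 19.7 in mural-like and 7.42 in osteoblast-like nuclei. The Cox6b1 promoter was also highest in erythroid-like nuclei, at 46.2 against 15.7 CPM in reticular-like nuclei. Member promoters summed were highest there too (6082 against 3055 CPM), so this lead was not particular to Cox6b2. The Cox4i2 promoter was highest in mural-like nuclei (13.9, interval 10.9 to 17.5), at 8.29 in reticular-like and 5.46 in osteoblast-like nuclei. Its value was 5.10 (interval 2.55 to 9.13) in chondrocyte-like nuclei, where its RNA was highest. Ndufa4l2 had no peak within 1 kb of its start.

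Lists of related genes went with the OXPHOS members in some gates and apart from them in others. In chondrocyte-like nuclei 13 of 18 glycolysis genes were higher and 1 lower (16.4% and 21.2% of all genes; median log2 2.03; 3109 CPM in sum against 869 in the other stroma), with the lactate exporter Slc16a3 at 84.3 against 6.01 CPM (log2 3.80). The mitophagy receptor Bnip3, another gene known from low oxygen, was at 134 against 19 CPM (2.82). In osteoblast-like nuclei 0 of 18 glycolysis genes were higher and 15 lower (29.8% of all genes; median -1.43, where all genes had -0.53), with the glucose transporter Slc2a1 at 5.73 against 54.1 CPM in the other stroma (log2 -3.19). Both medians are larger than the TMM shifts of these gates. The difference between these gates in median log2 ratio was larger for the glycolysis genes than for the OXPHOS genes. In the other gates 10 glycolysis genes were higher and 2 lower in osteoclast-like nuclei, and 3 were higher and 12 lower in erythroid-like nuclei (28.5% and 32.6% of all genes).

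Of the lists of other mitochondrial genes in osteoclast-like nuclei, some were called higher more often than genes at large (26.8%) and others were not. Past 2-fold were 12 of 18 genes of pyruvate use and the TCA cycle (0 lower, median 1.45), 50 of 75 genes of the mitochondrial ribosome (0 lower, median 1.18), 20 of 37 OXPHOS assembly factors (4 lower) and 5 of 6 genes of the cytochrome c and uncoupling list (0 lower). Close to the share of all genes were 4 of 15 genes of mitochondrial biogenesis (2 lower) and 27 of 89 ribosomal protein genes (0 lower). Of the medians, that of the biogenesis list (0.54) was no larger in size than the TMM shift of -0.54, and that of the dynamics and mitophagy list was 0.49, with 2 of 15 genes higher and 2 lower. Ppargc1b, which encodes the coactivator PGC-1β known to drive mitochondrial biogenesis in osteoclasts and was picked after its values were seen, had 53 UMIs in 20 of 50 osteoclast-like nuclei, at 250 CPM. It was at 0 to 19.2 CPM in the other 10 gates. Per 100 UMIs of cytosolic ribosomal proteins there were 22.8 OXPHOS UMIs in osteoclast-like, 18.4 in macrophage-like and 18.3 in reticular-like and in mural-like nuclei. There were 15.65 in granulocyte-like, 15.57 in erythroid-like, 14.9 in tendon or synovial-like and 14.1 in osteoblast-like nuclei. The lowest values were 13.5 in endothelial-like, 12.2 in B-lymphoid-like and 11.9 in chondrocyte-like nuclei. Relative to ribosomal protein RNA the reticular-like nuclei were thus not the lowest, and the erythroid-like, B-lymphoid-like and chondrocyte-like nuclei were below them.

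In erythroid-like nuclei, where 28.5% of all genes were higher, 7 of 18 TCA genes (0 lower), 33 of 77 genes of the mitochondrial ribosome (1 lower) and 7 of 16 genes of mitochondrial biogenesis (1 lower) were higher. The counts for ribosomal protein genes, 27 of 90 higher and 3 lower, and for assembly factors, 11 of 37 higher and 0 lower, were near that share upwards. Atpif1, the inhibitor that keeps ATP synthase from running backwards, and Ucp2, an inner membrane carrier, were chosen after their values were seen. Atpif1 was at 724 CPM (281 UMIs) against 52.9 CPM in the stroma, and Ucp2 at 175 against 10.4 CPM. The ADP/ATP carrier Slc25a4 went the other way, at 5.15 CPM (2 UMIs) against 50.7 CPM. B-lymphoid-like nuclei had 8 of 18 TCA genes, 36 of 74 genes of the mitochondrial ribosome, 12 of 17 biogenesis genes, 16 of 38 assembly factors and 42 of 89 ribosomal protein genes higher (33.5% of all genes), with medians of 0.82 to 1.19 beside a TMM shift of -0.79. In both the dynamics and mitophagy list was mixed, with 3 of 15 genes higher and 3 lower in erythroid-like and 2 higher and 4 lower in B-lymphoid-like nuclei.

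In the stromal gates the lists differed. In reticular-like nuclei, where 20% of all genes were higher and 10.6% lower, 1 of 18 TCA genes was higher and 0 lower, 3 of 15 biogenesis genes were higher and 0 lower, 3 of 72 genes of the mitochondrial ribosome were higher and 3 lower, and 3 of 89 ribosomal protein genes were higher and 9 lower. Chondrocyte-like nuclei (16.4% and 21.2% of all genes) had 35 of 89 ribosomal protein genes higher and 2 lower, and 14 of 72 genes of the mitochondrial ribosome higher and 2 lower. Of the genes of the mitochondrial ribosome, 2 were higher and 8 lower in osteoblast-like (4.73% and 29.8% of all genes), 3 higher and 2 lower in mural-like (12.5% and 9.33%), and 10 higher and 13 lower in tendon or synovial-like nuclei (11.4% and 18.4%). Among named members of the lists, Idh3a (a subunit of isocitrate dehydrogenase) was at 22.5 against 7.91 CPM (5 UMIs) and Cycs (cytochrome c) at 49.5 against 20.9 CPM in tendon or synovial-like nuclei, where Miga2 and Mrps17 had 0 UMIs. In mural-like nuclei Ucp2 was at 23.5 against 9.19 CPM, Mpc2 (a subunit of the mitochondrial pyruvate carrier) had 2 UMIs (5.22 CPM, interval 0.632 to 18.9, against 19.8 CPM) and Rps19bp1 had 0. Mrps6, of the small mitochondrial ribosomal subunit, was at 11 against 93.3 CPM in osteoblast-like nuclei, as was the kinase gene Rps6ka5, which the name pattern for ribosomal proteins also takes in, at 13.8 against 89.2 CPM. Coa3, an assembly factor of complex IV, had 1 UMI in chondrocyte-like nuclei (interval 0.0485 to 10.7 CPM, against 17.3 CPM). The mitochondrial RNA polymerase gene Polrmt and Ppargc1b had 0 UMIs in chondrocyte-like nuclei. Of RNAs retained in the nucleus, Meg3 was at 2.39 against 164 CPM in osteoblast-like and Kcnq1ot1 at 701 against 116 CPM in chondrocyte-like nuclei.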

How the data were processed

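Nuclei of tdTomato+ cells of Prrx1-cre; R26R-tdTomato/+ femur marrow were profiled for RNA and ATAC by the 10x Multiome assay, in 1 library of each. The deposited matrix held raw counts of every barcode. Per the file header the authors ran Cell Ranger ARC version 2.0.0, on mm10 with a tdTomato-WPRE sequence added. The values were RNA UMIs and ATAC counts in 203545 peaks. The aligner settings and whether introns were counted are not given in the sources used here. Over all barcodes the RNA library held 35460453 UMIs, and 416326 barcodes had both RNA and ATAC counts.

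The members, marker lists and pathway lists were chosen with earlier results of these data known. Nuclei were defined by depth alone. Scrublet (in Scanpy 1.11.5) itself marked 0 doublets, so the highest scores were removed at 0.8% per 1000 nuclei (161 nuclei, 3.59%). A nucleus entered a gate with at least 3 UMIs of at least 2 markers, at least 3 times the number that the free RNA profile would give, and in no other gate, a rule set after the data were seen. 2092 nuclei were in no gate and 269 in several, and neither were used. Mitochondrial shares used all UMIs, CPM used non-mitochondrial UMIs. For log2 ratios, 0.5 was added to the counts of each side. With 1 library there was no test.

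Complexes were assigned by gene name, except that Ndufa4 and Ndufa4l2 were counted with complex IV, and cytochrome c1 (Cyc1), which the name rule leaves out, was in the cytochrome c list. Of the 94 nuclear members, 42 overlap another gene model. Of 43 listed assembly factors 42 were found. Gene positions are those of mm10: 99.6% of the identifiers had a GENCODE vM21 model and 96.5% of the starts lay within 1 kb of it. Genes named were all mitochondrial members, the isoform families, the 4 nuclear members of largest ratio in each gate, the member of highest CPM in each complex and the 2 members of largest ratio of each pathway list in a stromal gate. Alternatives were a 10% mitochondrial limit, at least 5 marker UMIs, no doublet removal, at least 1000 UMIs, subtraction of free RNA, TMM scaling and other denominators, and, added after the data were seen, equal weights of nuclei, a mural list without Cspg4 and leaving out the nucleus with the most OXPHOS UMIs. Scripts used Python 3.11.15, numpy 2.4.6, scipy 1.17.1 and pandas 2.3.3. The log2 ratios and 2-fold calls were tested on simulated data, and the intervals were not.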

Additional observations from a re-analysis of the deposited data

How the results depend on the processing

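In the reticular gate the mitochondrial share was 5.02% with the limit of 10% mitochondrial UMIs, 11% with at least 5 marker UMIs, 12.4% without doublet removal, 11.3% from 1000 UMIs, 15.8% after subtraction of free RNA and 12.4% with nuclei weighted alike. In the osteoclast gate it was 6.86%, 30.2%, 31.1%, 32.1% (free RNA subtracted) and 32.7% (weighted alike). With the 10% limit the lowest gate was granulocyte (4.42%) and the highest chondrocyte (8.48%), and after subtraction the highest was macrophage (36.3%). For the nuclear members the osteoclast gate was highest under all of the alternatives that changed nuclei or subtracted free RNA, and the reticular gate lowest except under the 10% limit, where granulocyte was lowest (3355 CPM).

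OXPHOS levels of the reticular, chondrocyte, erythroid and osteoclast gates moved beyond the counting interval as follows, and levels of the other 7 gates moved too. With the 10% limit they were 4835 CPM in the chondrocyte, 5796 in the erythroid and 13700 in the osteoclast gate, with 5 marker UMIs 11350 in the osteoclast gate, and from 1000 UMIs 7682 in the erythroid gate. After subtraction of free RNA they were 3109 (reticular), 7991 (erythroid) and 10950 CPM (osteoclast). In the other gates the 10% limit gave 3355 (granulocyte), 3532 (osteoblast), 4348 (mural), 5205 (tendon or synovial), 5377 (endothelial), 6630 (B-lymphoid) and 6708 CPM (macrophage), and the B-lymphoid level was 5338 CPM without doublet removal. Without Gm42418, AY036118, Lars2, Rmrp and Malat1 in the denominator they were 4805, 6866, 9370 and 14370 CPM in the reticular, chondrocyte, erythroid and osteoclast gates. On this denominator the osteoblast, endothelial, mural and tendon or synovial gates stood at 5597, 5601, 6258 and 6579 CPM. The macrophage, B-lymphoid and granulocyte gates stood at 7613, 7745 and 8265 CPM, above the chondrocyte gate. With nuclei weighted alike the levels were 5224, 4817 and 8376 CPM in the chondrocyte, erythroid and osteoclast gates. Without the nucleus of most OXPHOS UMIs they were 5256 and 9333 CPM in the chondrocyte and osteoclast gates.

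Counts of members lower in the reticular gate were 2 from 1000 UMIs, 16 after subtraction of free RNA and 23 under TMM scaling (16.9% of all genes). No share of all genes was counted for the first and second of these settings. Members higher under TMM scaling were 8 in the chondrocyte (11.7% of all genes), 7 in the erythroid (18.3%) and 38 in the osteoclast gate (13.3%). Free RNA could make up at most 5.27% (chondrocyte) to 32.1% (macrophage) of UMIs. The causes of these shifts were not tested. No paired analysis was possible because each kind of library was a sample of its own without replicates. Counting error limits the members with few UMIs, and variation between animals could not be measured.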
